A study of Mus musculus with 12 samples.

Results

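The calcitonin peptide family and its receptors comprise 10 genes, chosen by symbol: the peptide genes Calca, Calcb, Adm, Adm2 and Iapp, the receptor genes Calcr and Calcrl, and the receptor activity-modifying protein genes Ramp1, Ramp2 and Ramp3. All 10 were among the 23284 genes counted in each of 12 mouse neuroendocrine thyroid carcinomas. Of these tumours, 5 carried the genotype label Rb1/Trp53/Crebbp (RPC) and 7 the label Rb1/Trp53 (RP), so the label names the tumour suppressor genes Rb1 and Trp53 in both groups and the histone acetyltransferase gene Crebbp in RPC alone. The comparison asks which genes differ with Crebbp in tumours of a genetically engineered mouse model. The sources used here do not give the driver of the deletions, the exons removed, the animals' age or whether each tumour came from a separate mouse, so whether the model touches the Calca locus is not known and p-values measure only the spread between these samples.

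Most of the family's peptides act through receptors built from a pair of proteins. Calca is spliced in thyroid C cells to calcitonin, which lowers blood calcium through Calcr, and in neurons mainly to calcitonin gene-related peptide (CGRP), a vasodilator. Calcb encodes a second CGRP, Adm and Adm2 encode the vascular peptides adrenomedullin and intermedin, and Iapp encodes the islet peptide amylin. Calcrl binds CGRP when paired with Ramp1 and adrenomedullin when paired with Ramp2 or Ramp3, while Calcr paired with a Ramp protein binds amylin. These receptors raise cyclic AMP, and medullary thyroid carcinoma, the cancer of C cells, is known for secreting calcitonin.

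The last coding exons of Calca and Calcb decide what the counts of both genes can show, so the coding part of 3 of them is printed here. The sequences are from the GENCODE M21 annotation of GRCm38, 5′ to 3′ on the gene's strand, whereas the deposited counts were made on mm9. The calcitonin exon lies at chr7:114633605-114633785 on the minus strand (transcript Calca-202), the Calca CGRP exon at chr7:114632443-114632599 on the minus strand (Calca-201), and the Calcb CGRP exon at chr7:114721975-114722134 on the plus strand (Calcb-201). Capitals mark the longest run of bases that both CGRP exons share.
Calca calcitonin exon, coding part: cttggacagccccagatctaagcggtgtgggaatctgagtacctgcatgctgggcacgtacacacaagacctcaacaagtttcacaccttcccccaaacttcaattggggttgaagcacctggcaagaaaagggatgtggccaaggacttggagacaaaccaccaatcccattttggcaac
Calca CGRP exon, coding part: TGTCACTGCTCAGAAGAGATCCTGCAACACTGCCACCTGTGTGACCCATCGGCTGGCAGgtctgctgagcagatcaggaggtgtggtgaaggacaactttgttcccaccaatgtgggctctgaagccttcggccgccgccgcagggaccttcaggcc
Calcb CGRP exon, coding part: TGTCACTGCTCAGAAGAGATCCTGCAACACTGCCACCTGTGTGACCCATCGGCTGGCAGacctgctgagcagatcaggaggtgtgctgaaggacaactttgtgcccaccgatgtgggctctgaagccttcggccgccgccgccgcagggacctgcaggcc
The shared run was 59 bases long, and 151 of 160 aligned bases (94.4%) of the coding CGRP exons were identical. The calcitonin exon shared no run longer than 7 bases with the Calcb exon, and 47.4% of aligned bases with the CGRP exon of its own gene. A gene count adds calcitonin and CGRP transcripts of Calca together, so the choice of splice form cannot be read from these data. Reads inside the shared run could belong to Calca or to Calcb, and since Calca held far more reads, the Calcb counts are uncertain.

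Gene counts per tumour ran between 9138460 and 20513383 in RPC tumours and between 9114162 and 57338411 in RP tumours. Levels are in counts-per-million units (CPM), with library totals scaled by the trimmed mean of M-values, and 3 counts stood for 0.0502 to 0.312 CPM, depending on the tumour. Crebbp itself averaged 53.9 ± 4.19 CPM in RPC tumours and 54.6 ± 20.0 CPM in RP tumours (SD, n = 5 and 7), and its log2 fold change was -0.02 ± 0.20 (SE) with an adjusted p of 0.957. A whole-gene count does not show the loss of single exons, so this neither checks nor contradicts the genotype label. The neuroendocrine label was checked against 12 C cell or neuroendocrine markers, which were all detected and summed to 4302 to 12207 CPM in RPC tumours and 8549 to 15415 CPM in RP tumours. Thyroid follicular markers, 10 of 11 of them tested and 2 called lower, summed to 394 to 5956 CPM in RPC tumours and 2035 to 9643 CPM in RP tumours. RPC 4 (5956 CPM) and RP 3 (2035 CPM) stood apart from their own groups in that sum. All 8 adipocyte markers were lower in RPC tumours, with sums of 42.7 to 121.9 CPM, against 60.2 to 1832 CPM in RP tumours. Of all tested genes, 8.61% were called lower (adjusted p under 0.05).

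Among the 9 family genes that passed the filter on low counts, 1 differed between genotypes past an adjusted p of 0.05: Adm2 was higher in RPC tumours, and none was lower. Across all 14989 tested genes, 18.3% passed the same threshold, 9.64% higher and 8.61% lower, so the family's share did not stand above the background. Unadjusted p-values under 0.05 were found for 6 of the 9 genes and for 5336 of all genes tested. The median log2 fold change of RPC over RP was -0.26 over the 9 genes, with 6 below 0, and -0.02 over all genes, with 7724 below 0. No family gene had ranges that stayed apart between genotypes, against 6.26% of all tested genes, 3.62% higher and 2.64% lower. Calcr did not pass the filter.

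**Figure D1:**
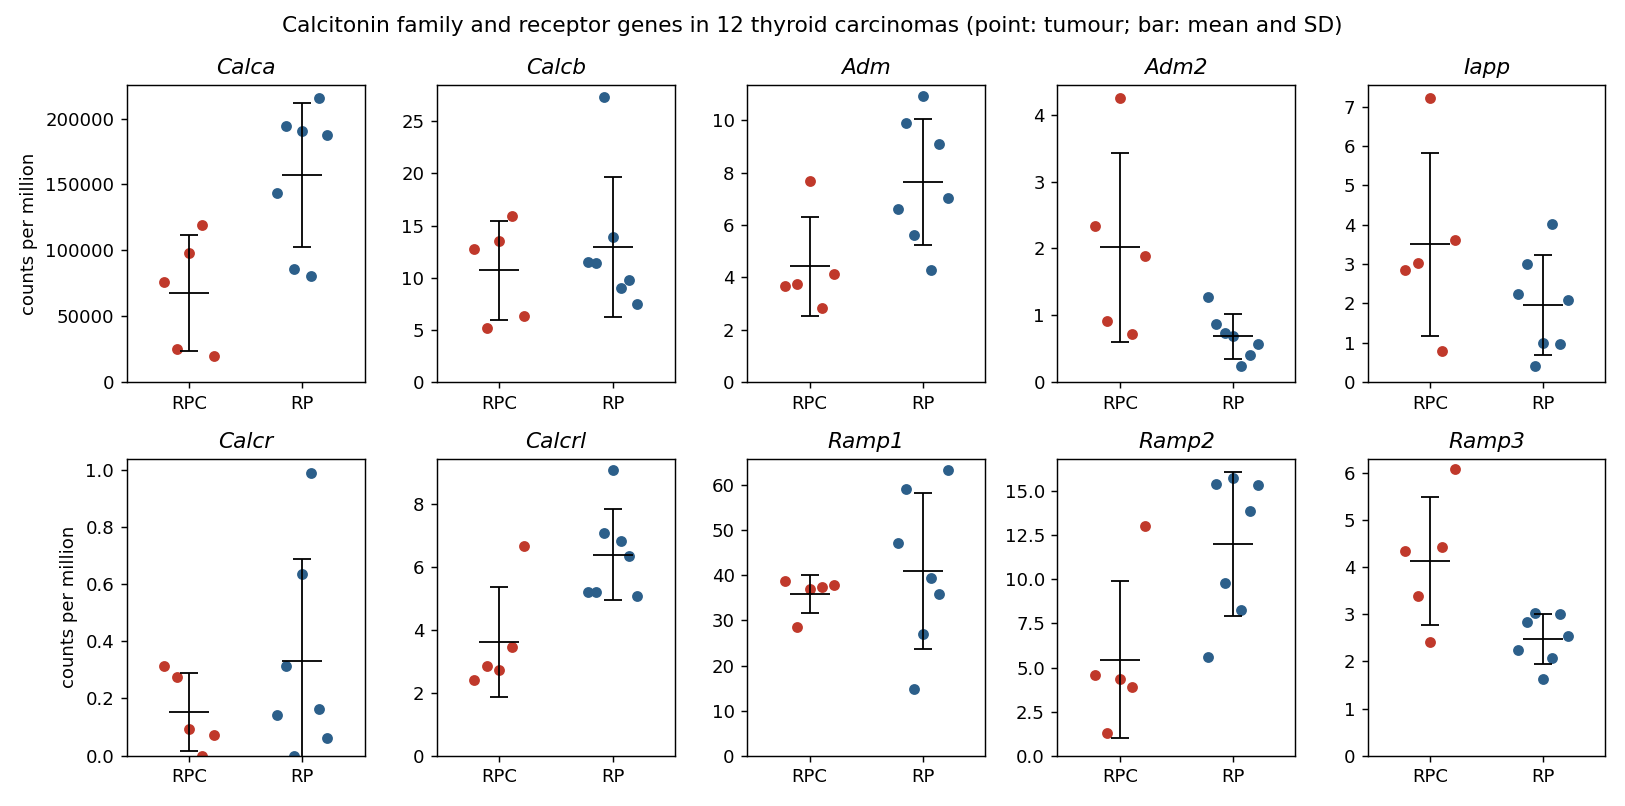
CPM of the 10 family genes (vertical axes, each from 0) in RPC tumours (left, n = 5) and RP tumours (right, n = 7), with a point per tumour and bars for the mean and SD. The groups overlap in every panel, with Calca at up to 119488 CPM in RPC tumours and 215747 CPM in RP tumours, and the lower SD bar of Calcr in RP tumours is cut at 0.

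Per kilobase of exon, Calca stood far above every other member in both genotypes. Its level averaged 41285 ± 26929 CPM per kb in RPC tumours and 95742 ± 33388 CPM per kb in RP tumours (SD, n = 5 and 7). Ramp1 came next with 11.9 ± 1.37 CPM per kb in RPC tumours and 13.6 ± 5.71 CPM per kb in RP tumours, then Calcb with 10.3 ± 4.54 CPM per kb in RPC tumours and 12.4 ± 6.44 CPM per kb in RP tumours. In RPC tumours the order went on with Ramp2, Iapp, Ramp3, Adm, Adm2, Calcrl and Calcr, and in RP tumours with Ramp2, Adm, Iapp, Ramp3, Calcrl, Adm2 and Calcr. Neighbours in this order had overlapping ranges except Calca and Ramp1 in both genotypes, Calcrl and Calcr in RPC tumours, and Calcrl and Adm2 in RP tumours. Calcr closed the list at 0.0387 ± 0.0349 CPM per kb in RPC tumours and 0.0842 ± 0.0916 CPM per kb in RP tumours.

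**Figure D2:**
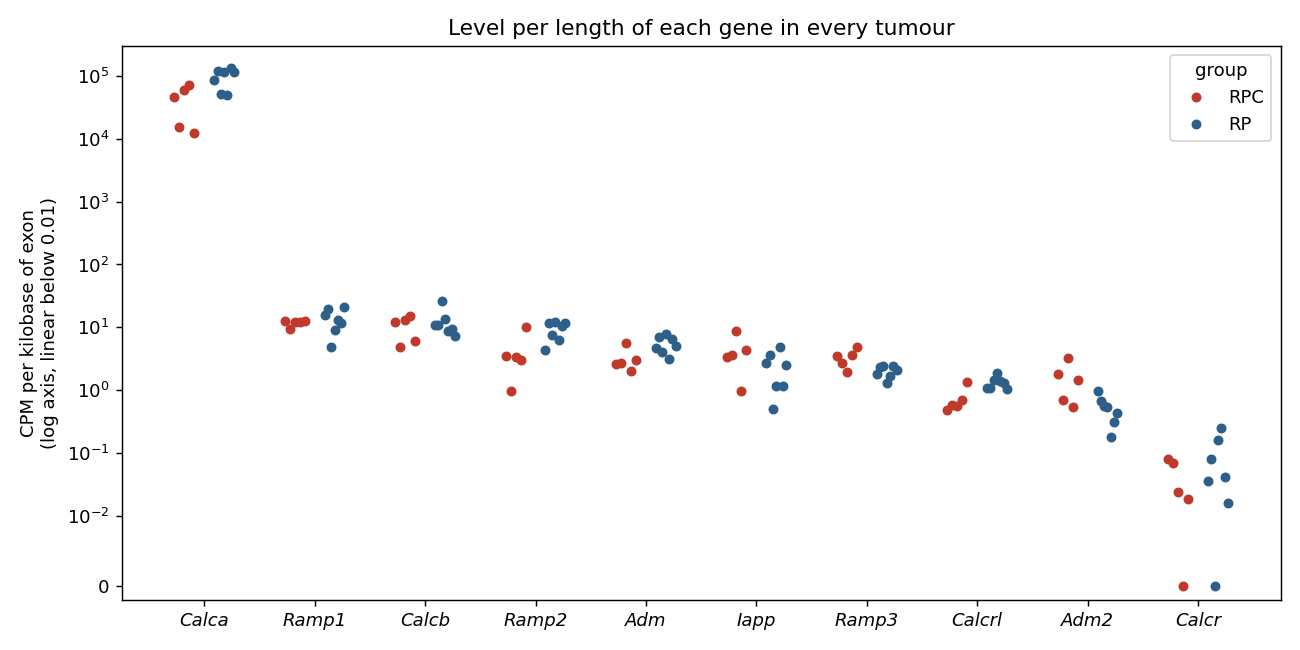
Level of each family gene in CPM per kilobase of exon (vertical log axis, linear below 0.01), with RPC tumours left of RP tumours and a point per tumour. Calca lies between 12206 and 131714 CPM per kb, and no other member rises above 26.3 CPM per kb.

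Calca, the calcitonin and CGRP gene, had the most counts of any gene in each of the 12 tumours. It measured 75549, 24888, 98205, 119488 and 19994 CPM in the 5 RPC tumours, against a lowest value of 80584, a median of 187149 and a highest value of 215747 CPM in the 7 RP tumours. RPC 1, RPC 2 and RPC 5 lay below all RP tumours, and RPC 3 and RPC 4 lay inside the RP range. Calca had 2.36% to 11.6% of gene counts in RPC tumours and 8.40% to 19.0% in RP tumours, and at least 99.6% of the counts of the whole family in each tumour. Next in rank stood Gnas, the gene of the stimulatory G protein subunit, in RPC 2, RPC 4 and RPC 5 (6006, 17779 and 6899 CPM) and in RP 5 and RP 7 (10093 and 14407 CPM). It was Rn45s, a ribosomal RNA gene, in RPC 1 and RPC 3 (16328 and 11347 CPM) and in RP 2, RP 4 and RP 6 (16983, 17605 and 10287 CPM). In RP 1 and RP 3 it was Scg2 (12831 and 9513 CPM).

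Calca had a log2 fold change of -1.21 ± 0.50 (SE), and the adjusted p of 0.103 missed the threshold. DESeq2 gave an adjusted p of 0.0205 and limma voom with sample weights 0.0125, both with Calca lower in RPC tumours. With RP 3 and RPC 4 left out, an alternative chosen after seeing the data, the log2 fold change of Calca was -1.62 with an adjusted p of 0.0377. In a fit that also held the follicular marker score, it was 0.45 with an adjusted p of 0.879. With the adipocyte score it was -0.61 (adjusted p 0.583), and with the endothelial score -1.57 (adjusted p 0.159). Follicular scores were at most -0.142 in RPC tumours (RPC 4) and at least -0.122 in RP tumours (RP 3). Fits with the follicular score can therefore hardly tell that score from genotype. RPC 2 and RPC 5, the lowest in Calca, had the lowest sums of follicular markers (394 and 537 CPM) and of neuroendocrine markers (4831 and 4302 CPM). RPC 1, also below the RP range in Calca, had 1145 CPM of follicular markers, below the RP range, and 9382 CPM of neuroendocrine markers, inside it. RPC 3, inside the RP range in Calca, had 7972 CPM of neuroendocrine markers, below the RP range. The part of either cell type in the Calca values was not tested. In bulk tumours, fewer cells of a type and less RNA per cell cannot be told apart.

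Calcb, the second CGRP gene, measured 12.7, 5.13, 13.5, 15.9 and 6.30 CPM in RPC tumours, against a lowest value of 7.48, a median of 11.4 and a highest value of 27.4 CPM in RP tumours. RPC 2 and RPC 5 lay below the RP range, and RP 3 alone exceeded 15.9 CPM among all 12 tumours. For Calcb the log2 fold change was -0.26 ± 0.36 (SE) with an adjusted p of 0.623, and without RP 3 it was 0.03. Relative to Calca, the log2 ratio of Calcb counts averaged -12.42 ± 0.513 in RPC tumours and -13.59 ± 1.01 in RP tumours (SD, n = 5 and 7). That difference of 1.18 had a two-sided exact permutation p of 0.0442 and an adjusted p of 0.0552 over the 5 values tested within tumours, which missed the threshold. Calca had a log2 fold change of -1.21, so the ratio largely restates the Calca difference and shares its counts with the Calca share tested below. The Calcb counts in it stay uncertain for the exon run shared with Calca. Without RP 3, where the ratio was -11.61 and so the highest of all tumours, the difference was 1.51 with an exact permutation p of 0.00433 and an adjusted p of 0.0108. No other omission of 1 tumour passed, and the exact adjusted p reached 0.125 without RPC 2. Of the sensory neuron markers, Scn9a and Prph, the 2 of 5 that were tested, were higher in RPC tumours, with list sums of 40.8 to 108.3 CPM in RPC tumours and 17.1 to 25.3 CPM in RP tumours, and the part of such cells in the Calcb values was not tested. Of all tested genes, 9.64% were called higher. Scn10a, a sodium channel of pain-sensing neurons, had at most 3 counts in any tumour.

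Adm2, the gene of intermedin, was the family member that passed the threshold, with a higher level in RPC tumours. It measured 2.33, 0.916, 4.25, 0.710 and 1.88 CPM in RPC tumours, against a lowest value of 0.234, a median of 0.694 and a highest value of 1.27 CPM in RP tumours. RPC 1, RPC 3 and RPC 5 lay above every RP tumour, while RPC 2 and RPC 4 lay inside the RP range. Adm2 averaged 2.02 ± 1.41 CPM in RPC tumours and 0.681 ± 0.333 CPM in RP tumours (SD, n = 5 and 7), from 171 reads in RPC tumours and 76 in RP tumours. The log2 fold change was 1.62 ± 0.48 (SE), a 3.07-fold higher level, with an adjusted p of 0.0363. The call was lost when any 1 of 8 tumours was left out (RP 2, RP 4, RP 5, RP 6, RP 7, RPC 1, RPC 3 or RPC 5), with a log2 fold change of 1.14 and an adjusted p of 0.118 without RPC 3 and adjusted p-values of 0.0193 to 0.118 over all 12 omissions. It was also lost when a marker score joined the fit, while the log2 fold change was 2.44 ± 0.83 (SE) with the follicular (adjusted p 0.433), 1.71 ± 0.59 with the endothelial (0.100) and 1.60 ± 0.65 with the adipocyte score (0.195).

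Adm, the gene of adrenomedullin and a hypoxia-induced gene in many tissues, measured 3.66, 3.76, 7.69, 2.84 and 4.13 CPM in RPC tumours, against a lowest value of 4.29, a median of 7.04 and a highest value of 10.9 CPM in RP tumours. RPC 3 alone lay inside the RP range, and the other 4 RPC tumours lay below it. Its log2 fold change was -0.78 ± 0.29 (SE) with an adjusted p of 0.0806. It passed the threshold without RPC 3 (-1.08, adjusted p 0.0329) and without RP 5 (-0.90, adjusted p 0.0435), and in DESeq2 (adjusted p 0.0449), but not in limma voom (adjusted p 0.0799). The difference between Adm and Adm2 in direction was not tested. Adipocyte markers were also lower in RPC tumours, and with their score in the fit the log2 fold change of Adm was -0.21 (adjusted p 0.705). It was -0.15 with the follicular score (adjusted p 0.967) and -0.72 with the endothelial score (adjusted p 0.236).

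Iapp, the amylin gene, was low throughout. It measured 2.84, 3.02, 7.22, 0.799 and 3.62 CPM in RPC tumours, against a lowest value of 0.416, a median of 2.09 and a highest value of 4.02 CPM in RP tumours. RPC 3 alone lay above the RP range. Between genotypes, Iapp had a log2 fold change of 0.82 ± 0.54 (SE) with an adjusted p of 0.292, and of 0.37 without RPC 3, with a range of 0.37 to 1.096 over the omissions of 1 tumour. Of 4 pancreatic beta cell markers none passed the filter on low counts, the insulin gene Ins2 had no count in any tumour, and the 4 together summed to at most 1.09 CPM in RPC tumours and at most 0.0167 CPM in RP tumours. Nkx6-1 was the most abundant of them, with a mean of 0.269 CPM in RPC tumours and 0 in RP tumours. In every tumour, 3 of the 4 markers had 3 or fewer counts.

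Calcr, the calcitonin receptor gene, was barely detected. It measured 0.315, 0.275, 0.0943, 0 and 0.0724 CPM in RPC tumours, against a lowest value of 0, a median of 0.162 and a highest value of 0.988 CPM in RP tumours. These values rest on 11 reads in RPC tumours and 79 reads in RP tumours, 59 of them in RP 5, the deepest library. Calcr had 3 or fewer counts in 4 RPC tumours and in 4 RP tumours, and the 0 counts of RPC 4 and RP 3 allow up to 0.266 and 0.312 CPM, counting error only. With no filter, the log2 fold change of Calcr was -1.24 ± 0.85 (SE) with an adjusted p of 0.351, so a difference was not detectable at this depth. Osteoclast markers, another cell type that carries the receptor, summed to 23.2 to 35.3 CPM in RPC tumours and 25.9 to 90.9 CPM in RP tumours.

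Calcrl, the receptor shared by CGRP and the adrenomedullin peptides and a gene of blood vessel lining cells, measured 2.40, 2.84, 2.74, 3.46 and 6.66 CPM in RPC tumours, against a lowest value of 5.07, a median of 6.34 and a highest value of 9.08 CPM in RP tumours. RPC 5 lay inside the RP range and the other 4 RPC tumours below it. Calcrl had a log2 fold change of -0.82 ± 0.28 (SE), and its adjusted p of 0.0542 missed the threshold. It passed without RPC 5 (-1.18, adjusted p 0.0144), without RP 1 (adjusted p 0.0496), with Calca left out of the library sizes (adjusted p 0.0482), in DESeq2 (adjusted p 0.0160) and in limma voom (adjusted p 0.00488).

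**Figure D3:**
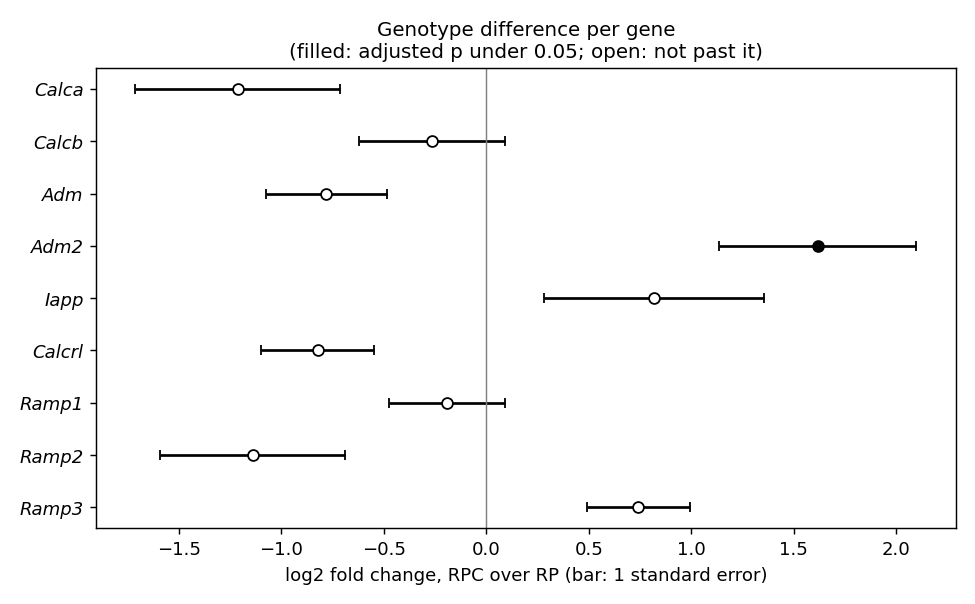
Log2 fold change of RPC over RP (horizontal axis) for the 9 tested family genes, with bars of 1 standard error and filled points for an adjusted p under 0.05. Adm2 at 1.62 is the filled point, while Ramp3 at 0.74 and Calcrl at -0.82 are open with adjusted p-values of 0.0565 and 0.0542.

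Endothelial markers were set beside Calcrl. All 12 of them were tested, and 2 were called lower (Emcn and Esam, cell surface proteins of endothelium), against 8.61% of all tested genes. Their median log2 fold change was -0.55, and their sums were 131, 83.0, 106, 113 and 238 CPM in RPC tumours, against 131 to 274 CPM in RP tumours. RPC 5, the RPC tumour with the highest Calcrl, also had the highest endothelial sum of its group. With the endothelial score as a covariate the log2 fold change of Calcrl was -0.47 with an adjusted p of 0.202. It was -0.66 with the adipocyte score (adjusted p 0.274) and -1.135 with the follicular score (adjusted p 0.543). Within tumours, the log2 ratio of Calcrl to the summed endothelial markers averaged -5.22 ± 0.344 in RPC tumours and -4.83 ± 0.246 in RP tumours (SD, n = 5 and 7), a difference of -0.39 with an exact permutation p of 0.0379 and an adjusted p of 0.0552. Without RP 3, whose endothelial sum of 274 CPM was the highest of all, the difference was -0.46 with an exact permutation p of 0.00433 and an adjusted p of 0.0108. Without RPC 1 it was -0.25 with an exact adjusted p of 0.148, and no omission of 1 tumour other than RP 3 passed. Against the marker Cdh5 alone the difference was -0.46 (exact permutation p 0.169, adjusted p 0.192). As a difference of medians it was -0.31 (exact permutation p 0.104, adjusted p 0.139).

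Ramp1, the partner that makes Calcrl a CGRP receptor, had the highest mean level per kilobase of the 3 Ramp genes in both genotypes. It measured 38.8, 28.6, 37.0, 37.4 and 37.8 CPM in RPC tumours, against a lowest value of 14.8, a median of 39.3 and a highest value of 63.5 CPM in RP tumours. All RPC tumours lay inside the wider RP range, and the log2 fold change was -0.19 ± 0.28 (SE) with an adjusted p of 0.654.

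Ramp2, the partner for adrenomedullin in blood vessels, measured 4.60, 1.28, 4.34, 3.91 and 13.0 CPM in RPC tumours, against a lowest value of 5.62, a median of 13.9 and a highest value of 15.7 CPM in RP tumours. The log2 fold change of Ramp2 was -1.14 ± 0.45 (SE) with an adjusted p of 0.0928. As with Calcrl, RPC 5 lay inside the RP range and the other 4 RPC tumours below it, and without RPC 5 the log2 fold change was -1.76 with an adjusted p of 0.0221. DESeq2 and limma voom gave Ramp2 adjusted p-values of 0.0392 and 0.00486, whereas its log2 fold change was -0.32 with the adipocyte score in the fit (adjusted p 0.694), -0.79 with the endothelial score (0.200) and -1.33 with the follicular score (0.734). The log2 ratio of Ramp2 to the endothelial markers averaged -4.90 ± 0.678 in RPC tumours and -3.98 ± 0.647 in RP tumours (SD, n = 5 and 7), a difference of -0.92 with an exact permutation p of 0.0366 and an adjusted p of 0.0552. Without RP 3 that difference was -1.05 with an exact permutation p of 0.0195 and an adjusted p of 0.0244, and without RPC 2 it was -0.64 with an adjusted p of 0.125. No omission of 1 tumour other than RP 3 passed. Against Cdh5 alone the difference was -0.99 (exact permutation p 0.077, adjusted p 0.128). As a difference of medians it was -0.89 (exact permutation p 0.0581, adjusted p 0.139).

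Ramp3, the other adrenomedullin partner, measured 4.35, 3.39, 2.41, 4.44 and 6.08 CPM in RPC tumours, against a lowest value of 1.62, a median of 2.54 and a highest value of 3.02 CPM in RP tumours. RPC 3 lay inside the RP range and the other 4 RPC tumours above it. The log2 fold change of Ramp3 was 0.74 ± 0.25 (SE) with an adjusted p of 0.0565, which became 0.0394 without RPC 3, 0.0465 without RP 3 and 0.0241 in DESeq2. In limma voom it was 0.0770, and with the follicular score in the fit the log2 fold change of Ramp3 was 0.25 with an adjusted p of 0.928. The log2 fold change was 0.93 with the endothelial score (adjusted p 0.0643) and 0.81 with the adipocyte score (adjusted p 0.205).

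Within a tumour the mix of the 3 Ramp genes was compared per kilobase of exon. Ramp1 made up 64.5%, 71.7%, 69.8%, 65.2% and 45.5% of the summed Ramp level in RPC tumours, against a lowest value of 32.9%, a median of 58.1% and a highest value of 71.7% in RP tumours. The mean shares of 63.3% ± 10.4 in RPC tumours and 53.2% ± 13.6 in RP tumours (SD, n = 5 and 7) did not differ beyond their spread, with an exact permutation p and adjusted p of 0.192. Ramp2 made up 19.3% ± 10.6 in RPC tumours and 38.1% ± 11.9 in RP tumours, and Ramp3 made up 17.3% ± 3.67 in RPC tumours and 8.74% ± 3.68 in RP tumours (SD, n = 5 and 7). The differences in the Ramp2 and Ramp3 shares were not tested.

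**Figure D4:**
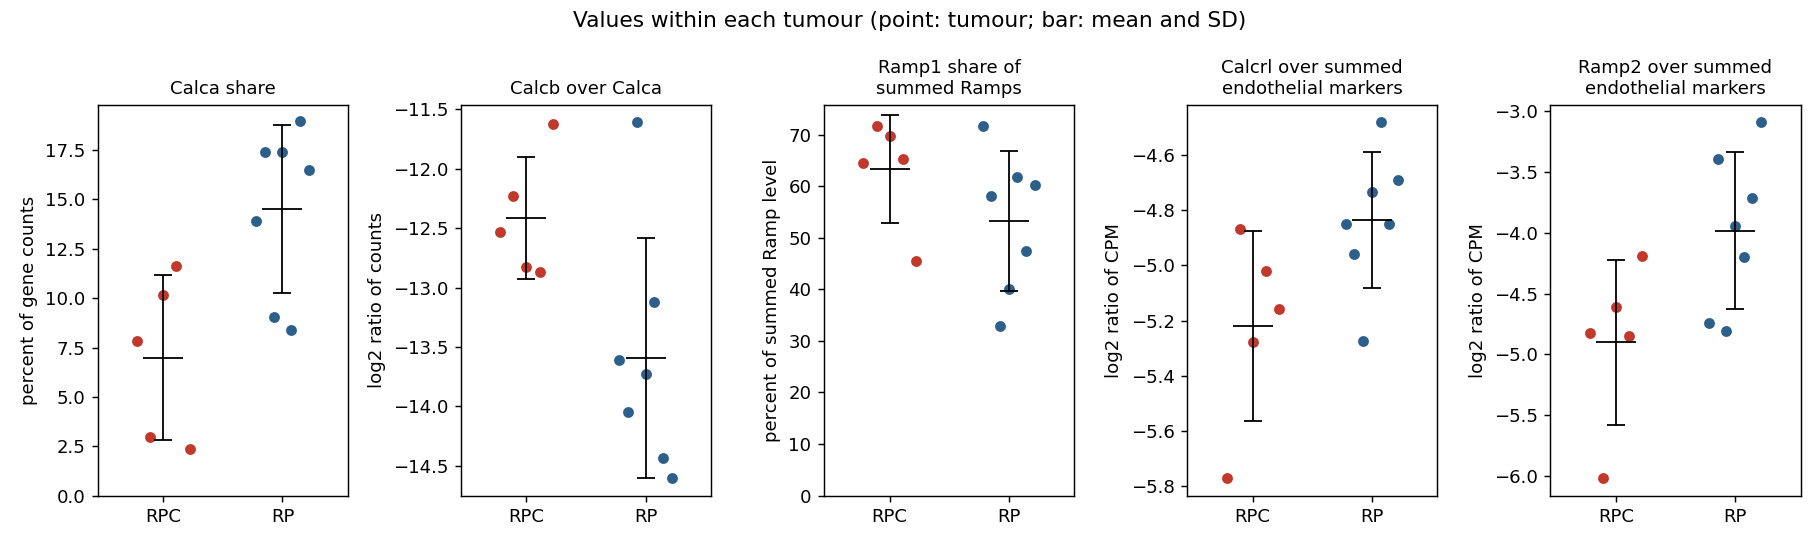
The 5 values compared within each tumour, RPC left (n = 5) and RP right (n = 7), with a point per tumour and bars for the mean and SD: the Calca share of gene counts and the Ramp1 share of summed Ramp levels in percent, and log2 ratios of Calcb to Calca and of Calcrl and Ramp2 to the endothelial markers. Calca averages 6.98% in RPC tumours and 14.5% in RP tumours, and RP 3 lies at -11.61 in the Calcb ratio, apart from the other RP tumours.

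The Calca share of gene counts, tested over all splits of the tumours into groups of 5 and 7, averaged 6.98% ± 4.17 in RPC tumours and 14.5% ± 4.24 in RP tumours (SD, n = 5 and 7). The difference of -7.53 percentage points had an exact permutation p of 0.0164 and an adjusted p of 0.0552. As a difference of medians it was -8.67 percentage points (exact permutation p 0.0253, adjusted p 0.126). It was -8.44 percentage points without RP 3, with an adjusted p of 0.0180 from the same exact test, and -7.74 without RPC 1, with an adjusted p of 0.106. No omission of 1 tumour other than RP 3 passed.

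Enzymes that make the mature peptides were lower in one case. Of 6 peptide maturation genes tested, Pcsk2, the prohormone convertase of dense-core granules, fell in RPC tumours and none rose, with a list median of -0.30 log2. Over all tested genes, 9.64% were called higher and 8.61% lower. Pcsk2 averaged 2108 ± 1126 CPM in RPC tumours and 5505 ± 668 CPM in RP tumours (SD, n = 5 and 7), a 2.61-fold lower level with an adjusted p of 0.0181 and ranges that did not overlap. Of 4 genes for proteins that degrade or take up the peptides, none was called and the median was -0.52. Mme, the peptidase neprilysin, had the smallest p of them, with 0.830 ± 0.868 CPM in RPC tumours and 2.54 ± 1.89 CPM in RP tumours and an adjusted p of 0.130.

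Downstream of the receptors, 5 of 26 tested coupling and cyclic AMP genes rose and 2 fell, with a median of 0.15. Over all tested genes 18.3% were called, and no list here was tested against that share. Grk5, a kinase that switches off active receptors, averaged 10.7 ± 3.29 CPM in RPC tumours and 21.1 ± 5.15 CPM in RP tumours (adjusted p 0.0149), and Arrb2, a beta-arrestin that uncouples them, averaged 59.0 ± 6.34 CPM in RPC tumours and 83.8 ± 13.4 CPM in RP tumours (adjusted p 0.0182). The 5 that rose were Adcy1, Adcy3, Prkaca, Prkar2a and Atf1, which were named after their values were seen. Adcy1, a calcium-stimulated adenylyl cyclase, was 3.84-fold higher in RPC tumours (adjusted p 0.0197), and its adjusted p was 0.0604 without RPC 2. Without RPC 2, the adjusted p of Prkar2a was 0.0527. Atf1 lost the call without RP 6, RPC 1 or RPC 2, with adjusted p-values up to 0.0908. Adcy3 lost it without any 1 of 9 tumours (all but RP 1, RP 3 and RPC 4, adjusted p up to 0.101), and Prkaca without any 1 of 8 (all but RP 1, RP 3, RP 7 and RPC 4, adjusted p up to 0.116).

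Among 10 tested genes of other receptors that pair with Ramp proteins, 2 rose and 3 fell in RPC tumours, with a median of -0.54. Over all tested genes 18.3% were called, 9.64% higher and 8.61% lower. Gcgr, the glucagon receptor gene, averaged 52.5 ± 17.3 CPM in RPC tumours and 162 ± 27.3 CPM in RP tumours (SD, n = 5 and 7), a 3.08-fold lower level with an adjusted p of 0.00203 and no overlap of ranges. Vipr1, a receptor gene for vasoactive intestinal peptide, averaged 52.4 ± 11.9 CPM in RPC tumours and 102 ± 19.6 CPM in RP tumours, 1.94-fold lower with an adjusted p of 0.00676 and again no overlap. Gipr, a gut hormone receptor gene, also fell (2.66-fold lower, adjusted p 0.0289), and Vipr2 (2.93-fold higher, adjusted p 0.00971) and Crhr2 (3.92-fold higher, adjusted p 0.0309) rose, all named after their values were seen. Gipr lost its call without RP 2, RPC 1 or RPC 2 (adjusted p up to 0.0730), and Crhr2 without RP 2, RP 4, RP 7, RPC 1, RPC 2, RPC 4 or RPC 5 (up to 0.0688).

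Splicing factors tied to the choice between the calcitonin and CGRP exons printed above held the largest single changes of the 7 lists: 3 of 13 rose and none fell, with a median of 0.18, beside 18.3% of all tested genes called. Elavl3, a neuronal RNA-binding protein of the Hu family, averaged 89.8 ± 47.1 CPM in RPC tumours and 7.74 ± 5.89 CPM in RP tumours (SD, n = 5 and 7), 11.5-fold higher with an adjusted p of 0.00245 and ranges of 53.8 to 171 CPM in RPC tumours and 2.09 to 17.6 CPM in RP tumours. Rbfox1, a splicing regulator of neurons and muscle, averaged 23.5 ± 11.5 CPM in RPC tumours and 5.22 ± 2.68 CPM in RP tumours, 4.44-fold higher with an adjusted p of 0.00785. Elavl2, named after its values were seen, was 9.79-fold higher (log2 fold change 3.29, adjusted p 0.0117), and 4.33 on the log2 scale without RP 5. These genes moved with the sensory neuron markers Scn9a and Prph, and the part of such cells was not tested.

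Of 9 transcription factors tied to Calca, 1 fell and none rose, with a median of -0.09, beside 18.3% of all tested genes called. Nkx2-1, a transcription factor of thyroid cells, averaged 233 ± 27.2 CPM in RPC tumours and 316 ± 27.2 CPM in RP tumours (SD, n = 5 and 7), 1.35-fold lower with an adjusted p of 0.0165. Of 12 hypoxia genes set alongside Adm, 5 rose and 1 fell, with a median of 0.58, while Adm itself had a log2 fold change of -0.78. Over all tested genes, 9.64% were called higher and 8.61% lower. Pdk1, a kinase that inhibits pyruvate dehydrogenase, averaged 102 ± 15.6 CPM in RPC tumours and 60.2 ± 8.55 CPM in RP tumours (adjusted p 0.00421). Pgk1, a glycolytic enzyme gene, averaged 437 ± 119 CPM in RPC tumours and 228 ± 30.2 CPM in RP tumours (adjusted p 0.00711). Car9, Ldha and Ndrg1 also rose and Epas1 fell, named after their values were seen, with Car9, a carbonic anhydrase gene, 4.36-fold higher (adjusted p 0.0144) and Ldha, the lactate dehydrogenase A gene, 1.63-fold higher (adjusted p 0.0119). Ndrg1 lost the call without any 1 of 10 tumours (all but RP 3 and RPC 4, adjusted p up to 0.129), and Epas1 without any 1 of 8 (all but RP 1, RP 5, RP 7 and RPC 4, adjusted p up to 0.0913). The follicular score was lower in every RPC tumour than in any RP tumour, so a fit with it can hardly tell score from genotype. Once the follicular score entered the fit, no gene named from these lists was called, and 2 of all tested genes were. The log2 fold change was then -0.55 for Arrb2 (-0.51 without the score), -1.29 for Gcgr (-1.62), 2.19 for Elavl3 (3.52) and -0.16 for Pcsk2 (-1.39), so some differences were about as large and others much smaller. With the adipocyte score, whose ranges overlapped between genotypes, only Gcgr (adjusted p 0.0287), Vipr1 (0.0385) and Pgk1 (0.0448) of these genes stayed called. Elavl3 had an adjusted p of 0.0578 in that fit, and Pcsk2 0.127. In the fit with the endothelial score, Arrb2, Adcy1, Adcy3, Prkaca, Prkar2a, Atf1, Gipr, Crhr2 and Epas1 lost the call.

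**Figure D5:**
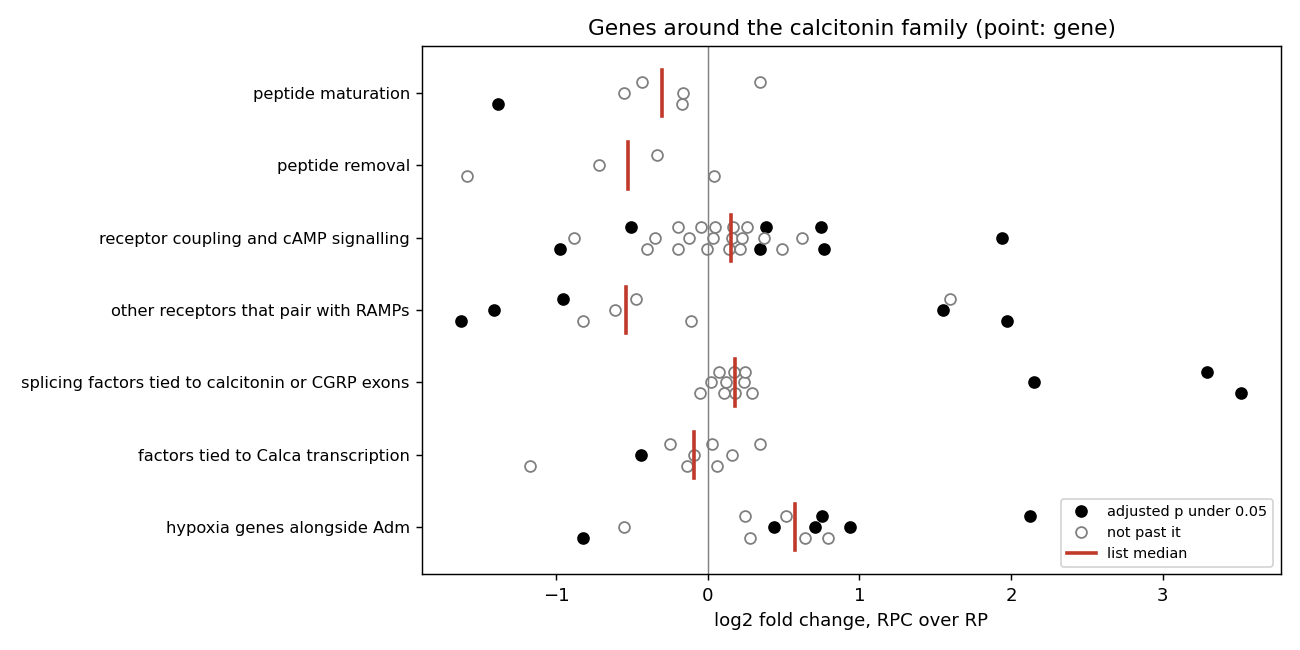
Log2 fold change of RPC over RP (horizontal axis) for the tested genes of 7 lists around the calcitonin family, with filled points for an adjusted p under 0.05 and a red line at each list's median. Elavl3 at 3.52 lies farthest to the right, and the medians run between -0.54 and 0.58.

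The genes whose log2 CPM was most like that of Calca over the 12 tumours, out of 13267 searched, were Prrg2 (Pearson r 0.975, Spearman rho 0.888), Ero1lb (0.970 and 0.937), Txndc5 (0.970 and 0.895), Kdelr1 (0.969 and 0.944) and Fkbp11 (0.967 and 0.916). Without the 2 tumours farthest from the Calca median, r was 0.908, 0.913, 0.892, 0.942 and 0.914 in the same order, and within the 7 RP tumours it was 0.918, 0.917, 0.908, 0.980 and 0.895. The genes most like Calcrl were Blnk (r 0.951, rho 0.895), Psca (0.946 and 0.874), Zcchc24 (0.945 and 0.888), Car13 (0.944 and 0.888) and Anxa1 (0.938 and 0.902), with r within the RP tumours of 0.766, 0.816, 0.773, 0.806 and 0.862. Without the 2 tumours farthest from the Calcrl median, r was 0.920, 0.912, 0.922, 0.895 and 0.939. These correlations are the top of a search over many genes whose points share library, scaling and genotype, so they describe these tumours and carry no test.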

How the data were processed

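Polyadenylated RNA was sequenced from 12 mouse tumours after TRIzol extraction, oligo(dT) selection and NEBNext Ultra library preparation, per the labels' protocols. The submitters' processing notes name bcl2fastq 1.8.2, TopHat2 2.0.12, the counter HTSeq 0.6.1 and the mouse build mm9. The annotation, the strand setting and the read length are not given in sources used here. Overlapping genes and antisense partners therefore cannot be told apart. Each tumour has its own table of raw read counts as the authors deposited them. It lists 23284 genes, and its 5 summary rows (reads outside genes were 13.1% to 17.6% of a table) entered neither library sizes nor tests.

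Genotype was tested in edgeR 4.0.16 (robust quasi-likelihood F test, trimmed mean of M-values, filterByExpr with a minimum count of 10) with Benjamini-Hochberg adjustment over 14989 genes and a threshold of 0.05. The standard error is the log2 fold change divided by the square root of F. A marker score is the mean over a list's tested markers, each as log2 CPM standardised over all tumours. Within tumours, 5 values were compared by two-sided exact permutation of group means over all splits (enumerated in Python 3.11.15), adjusted over the 5. To each count of the Calcb to Calca ratio 0.5 was added. With 5 and 7 tumours the smallest p is 0.00126. Spearman correlations came from scipy 1.17.1. DESeq2 1.42.0 and limma 3.58.1 were alternatives, and the scripts were tested on simulated data. Exon lengths and sequences came from GENCODE M21 on GRCm38, matched by symbol for all 10 genes, and no coordinates were mixed with mm9.

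The family members, marker and pathway lists were chosen with earlier results of these data known. Named were all members, the 2 called genes with the smallest p of each pathway list (or the 1 with the smallest p), Crebbp, and the 5 genes most like Calca and Calcrl (mean level 1 CPM or more). Marker lists of fibroblasts (427 to 1619 CPM in RPC tumours, 529 to 3244 CPM in RP tumours), macrophages (216 to 580 CPM and 282 to 1294 CPM, RPC and RP), smooth muscle or pericytes (64.7 to 477 CPM and 89.2 to 274 CPM), lymphatic endothelium (87.5 to 189 CPM and 54.8 to 134 CPM) and lymphocytes (3.12 to 4.54 CPM and 9.78 to 38.7 CPM) were also summed, and their part in the results was not tested. The most abundant lymphatic marker was Prox1 (mean 90.0 CPM in RPC and 53.0 CPM in RP tumours). That of smooth muscle or pericytes was Des (86.7 CPM in RPC and 42.7 CPM in RP tumours). Pdpn (lymphatic), Acta2 and Myh11 (smooth muscle), Pdgfra (fibroblast) and Cd79a (lymphocyte) were called lower in RPC tumours. No gene of these lists was called higher, and 8.61% of all tested genes were called lower. No pair of tumours of a genotype agreed within sampling noise (lowest chi-square per degree of freedom 25.6).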

Additional observations from a re-analysis of the deposited data

Results flagged for a closer look

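A tumour lay far from the others of its genotype in 13 of 74 groups examined. Chance flags about 1 in 20 independent groups, but these are not independent: 5 of the 13 are in genes picked for their likeness to Calcrl, so the rate is no yardstick here. RPC 5 stood highest in its group for Calcrl (6.66 CPM, next 3.46) and Ramp2 (13.0 CPM, next 4.60), and lowest for the Ramp1 share of summed Ramp levels (45.5%, next 64.5%). The same tumour was highest for 4 of the genes most like Calcrl: Blnk (3.84 CPM, next 1.60), Psca (156 CPM, next 1.07), Zcchc24 (14.8 CPM, next 6.23) and Anxa1 (289 CPM, next 101). RPC 3 was highest for Adm (7.69 CPM, next 4.13). RPC 2 was lowest for Ramp1 (28.6 CPM, next 37.0) and highest for Elavl3 (171 CPM, next 81.4). Among RP tumours, RP 3 was highest for Calcb (27.4 CPM, next 13.9), RP 4 for Psca (84.2 CPM, next 37.9) and RP 1 for Crebbp (98.9 CPM, next 54.8).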

How the results depend on the processing

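Adm2 stayed called in RPC tumours with DESeq2, limma voom, 3 other scalings and 2 other filters, and the scalings moved the median of all genes farthest with Calca left out, by -0.0175. The number of family genes called higher and lower was 1 and 0, against 2 and 4 in DESeq2, 1 and 3 in limma voom, 1 and 1 with Calca left out or with RP 3 and RPC 4 left out, and 0 and 0 with each of the 3 marker scores, while leaving out 1 tumour gave 0 to 2 in either direction. Of all genes, 1445 were called higher and 1291 lower. These counts were 3294 and 3063 in limma voom, 458 and 313 with the endothelial score, and 78 and 78 with the adipocyte score. They were 2 and 0 with the follicular score, whose ranges did not overlap between genotypes. Genes called lower were 2035 in DESeq2 and 2098 without RP 3 and RPC 4, and leaving out 1 tumour gave 557 to 1800 higher and 517 to 1710 lower. The lowest counts came without RPC 2 (557 and 517), and counts also moved by over 1.5 times without RP 2, RP 4, RP 6, RPC 1, RPC 3 or RPC 5. The cause of these shifts was not tested.

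Without RP 3 and RPC 4 the Calca share difference was -9.60 percentage points, the Calcb to Calca difference 1.62, the Calcrl to endothelial difference -0.51 and the Ramp2 to endothelial difference -1.065 (log2), all past the threshold. Leaving out 1 tumour gave -8.69 to -6.37, 0.98 to 1.51, -0.47 to -0.25 and -1.09 to -0.64, and 6.80 to 14.6 percentage points for the Ramp1 share. Direction turned only for differences that were not called: Calca to 0.45 and Ramp1 to 0.35 (log2) with the follicular score, Ramp1 to 0.070 and Mme to 0.27 with the adipocyte score, Calcb to 0.25 with the endothelial score, to 0.069 in limma voom and to 0.030 without RP 3 (-0.44 to 0.030 over all omissions), and Crebbp to 0.19 in limma voom, and -0.077 to 0.19 over the omissions, above 0 without RP 1 (0.19) and RPC 3 (0.0091).

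The labels do not say whether equal tumour numbers pair the tumours. Same-numbered tumours correlated at 0.159, -0.056, -0.0455, 0.121 and -0.0431 in their deviations from the group means. Only RPC 1 was most like the RP tumour of its own number, and a pairing was not tested. On replicates 1 to 5 alone 480 genes were higher and 388 lower, and with the replicate block 244 and 219, with 0 family genes in either fit. With that block the log2 fold change was 0.067 for Ramp1, 0.0054 for Crebbp and 1.34 for Adm2 (adjusted p 0.178). Exact sign flips of 5 pairs cannot go below 0.0625. Low counts limit Calcr and Adm2.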
